A study of Homo sapiens with 4 samples.

Results

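Aminoacyl-tRNA synthetases are the enzymes that join each amino acid to its tRNA, and 36 of their genes were examined in ES2 cells, an established human line of ovarian cancer, after vehicle or liquiritigenin (Liq). The members were listed by gene symbol, with earlier results of these data known, 20 for the cytosolic enzymes and 16 for the mitochondrial enzymes, whose symbols end in 2, and all 36 were found among the 23228 genes of the count tables. Liq is a plant flavanone that the study used as an agonist of estrogen receptor β. The vehicle group and the Liq group had 2 samples each, all cells were kept in phenol red-free medium with charcoal-treated serum, and the Liq group received 100 μM (the dose in the study's methods) for 24 h. No source says whether replicates came from separate cultures, and the study's methods say only that samples were run in duplicates. The p-values therefore rest on the spread between these samples, which may be technical. That spread was estimated with information shared across all tested genes, not from the samples of each gene alone.

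Each synthetase recognises its amino acid and the matching tRNAs, activates the amino acid with ATP and transfers it to the tRNA, which the ribosome then uses to read a codon. The cytosol and the mitochondria carry separate sets of enzymes, and both sets are encoded in the nucleus. A few genes serve both places, since GARS (glycine) and KARS (lysine) each give rise to a cytosolic and a mitochondrial form. Several cytosolic synthetases sit together in a multisynthetase complex. When amino acids run short, uncharged tRNA activates the kinase GCN2 (EIF2AK4), and the transcription factor ATF4 then raises many cytosolic synthetase genes together with genes for amino acid synthesis and uptake.

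Between 34573053 and 48933893 reads per sample fell on genes, and 13546 genes passed the filter on low counts, all 36 members among them. The counts of the members ranged from 357 to 26088 per sample. Libraries differed by more than counting noise within each group, so no library was treated as a duplicate of another. As markers of the cells, vimentin (VIM) and keratin 18 (KRT18) had 230451 to 312656 and 5996 to 8387 counts per sample, while the epithelial adhesion gene EPCAM had 1 to 3 counts and the Müllerian factor PAX8 had 12 to 49. VIM, KRT18, PAX8 and the Müllerian marker WT1 fell with Liq, without overlap of the groups (log2 fold changes -0.28, -0.24, -1.34 and -0.68). Keratin 8 (KRT8) was above vehicle in both Liq samples without a call (0.13, edgeR adjusted p = 0.318), and the part of that shift in the values below was not tested. The leukocyte marker PTPRC had 0 or 1 count. ESR2, which encodes estrogen receptor β, had 4 to 14 counts per sample and was below the filter, and ESR1 had 17 to 34.

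Levels per transcript length (RPKM, reads normalized for library size and divided by the length of the reference transcript) were mostly higher for the cytosolic than for the mitochondrial genes in vehicle, with overlap. In vehicle the cytosolic genes had a median level of 86.9 RPKM, from 35.6 for FARSB to 213 for SARS, the cytosolic serine enzyme. The mitochondrial genes had a median level of 10.2 RPKM, from 4.63 for PARS2, the proline enzyme, to 69.5 for IARS2, the isoleucine enzyme, which lay above 6 cytosolic genes (HARS, DARS, FARSA, VARS, CARS and FARSB). In each of the 17 pairings of a cytosolic with a mitochondrial gene for the same amino acid the cytosolic gene was the higher, by 1.199 times for IARS over IARS2 and up to 33.8 times for SARS over SARS2, with a median of 8.47 times. Transcript lengths were those of 1 reference transcript per gene, so a gene that uses another 3′ end has a biased level. Summed over the 20 cytosolic genes, the level in CPM (counts scaled to library size by the TMM method) was 5799 and 5813 for vehicle and 5498 and 5651 for Liq. The sum over the 16 mitochondrial genes was 786 and 783 in vehicle and 737 and 731 with Liq. Both TMM-scaled sums were lower in each Liq sample than in each vehicle sample, and the cytosolic sum was 7.38 and 7.42 times the mitochondrial sum in vehicle and 7.46 and 7.73 times with Liq. Without TMM scaling, the cytosolic genes held 0.562% and 0.569% of reads on genes in vehicle and 0.566% and 0.580% with Liq. For these cytosolic shares the groups overlapped. The mitochondrial genes held 0.0761% and 0.0767% in vehicle and 0.0758% and 0.0750% with Liq. RNA-seq of bulk cells cannot tell fewer expressing cells from less RNA per cell.

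**Figure D1:**
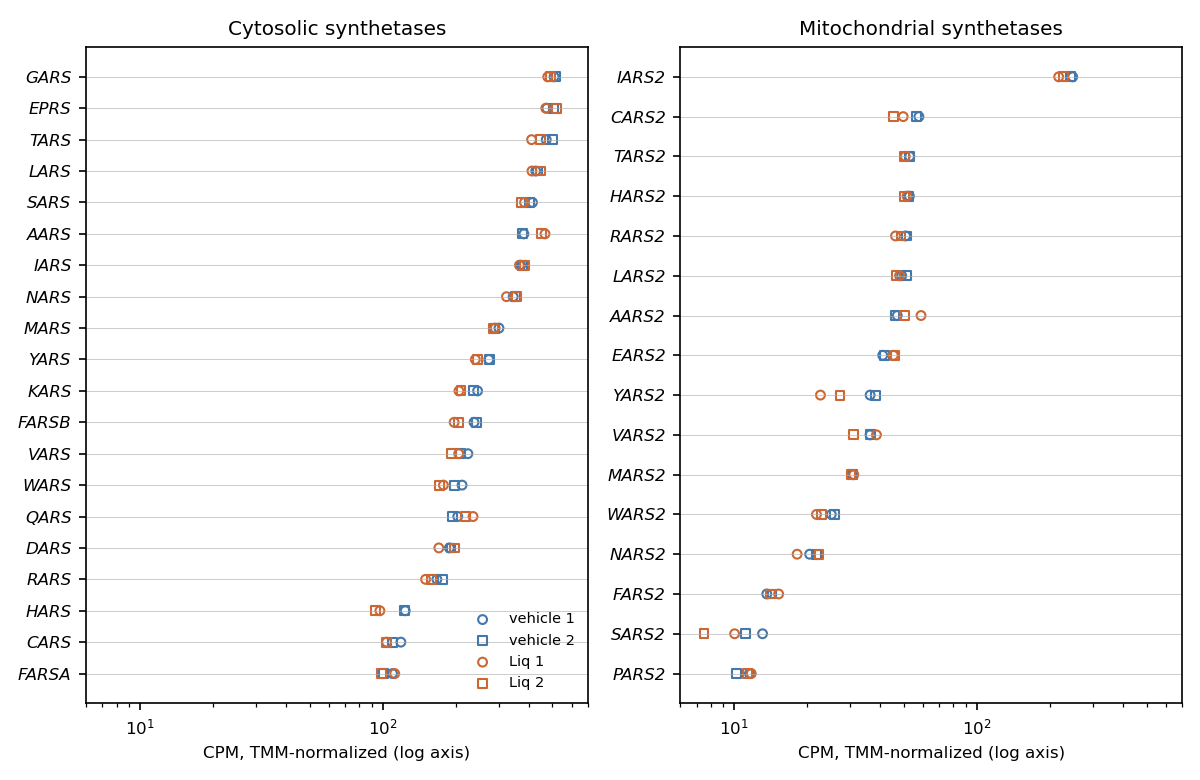
Level of each synthetase gene in every sample, in TMM-normalized CPM on a log axis, with cytosolic genes on the left and mitochondrial genes on the right, ordered by their level in vehicle. Blue symbols are vehicle samples and orange symbols are Liq samples (circles for replicate 1, squares for replicate 2). Most genes have 4 symbols close together, while both Liq symbols of YARS2 and HARS lie left of both vehicle symbols and those of AARS lie to the right.

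Changes in the synthetase genes were small and went mostly downward. With edgeR's quasi-likelihood test and a Benjamini-Hochberg adjusted p-value under 0.05, 10 of the 36 genes changed in Liq-treated cells, 8 lower and 2 higher. That is 27.8% of the members, beside 24.0% of all tested genes (12.6% higher and 11.3% lower). By direction, 22.2% of the members were lower and 5.56% higher. Among the 20 cytosolic genes, HARS, FARSB, WARS, KARS and TARS fell and AARS and QARS rose. Among the 16 mitochondrial genes, YARS2, SARS2 and CARS2 fell and 0 rose by the same edgeR test, where 1 gene was higher at an unadjusted p-value under 0.05 and the DESeq2 Wald test also found 0. None of the 36 reached the 1.5-fold change that the study required, with an adjusted or an unadjusted p-value, in either direction (edgeR), although 15 had an unadjusted p-value under 0.05. Of all tested genes, 6.45% passed 1.5-fold with an adjusted p-value and 7.85% with an unadjusted one. Cytosolic genes had a median log2 fold change of -0.09 and mitochondrial genes one of -0.07, with 0.01 over all tested genes. Both Liq samples lay below both vehicle samples in 20 members and above them in 4, and the groups overlapped in 12. Among all tested genes, the groups did not overlap in 61.7% (below in 30.2% and above in 31.5%).

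**Figure D2:**
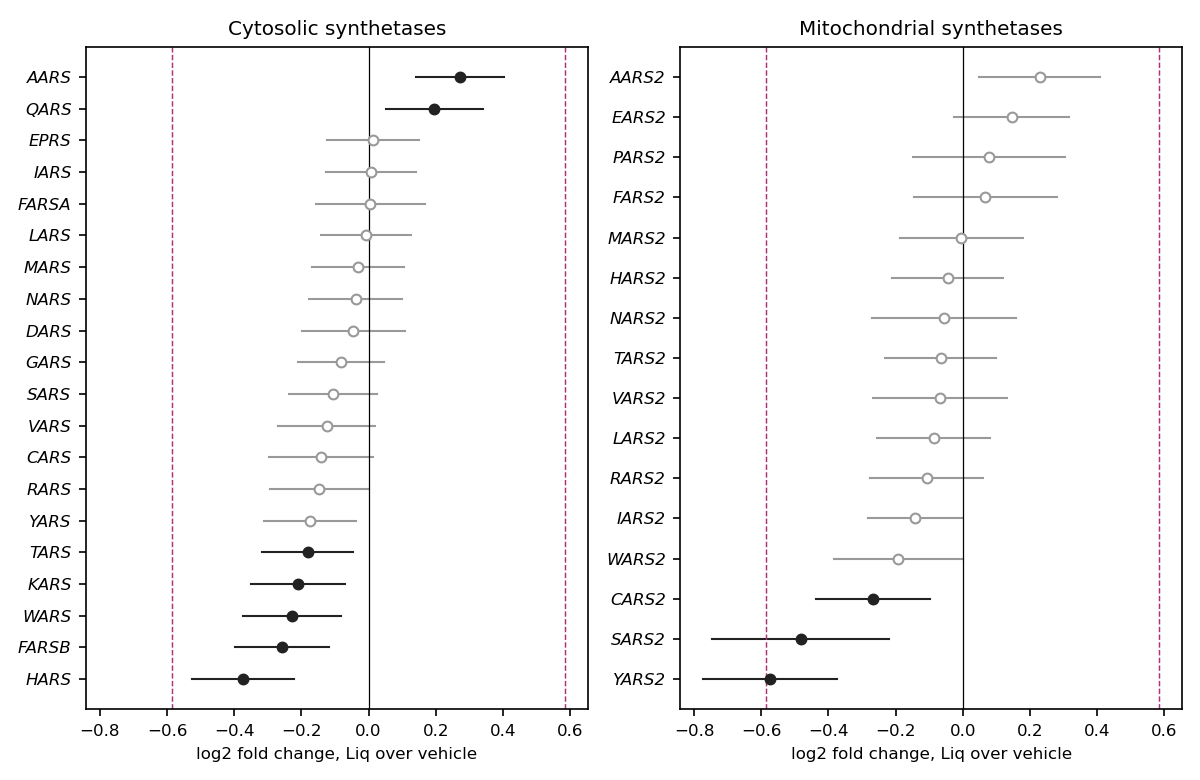
Log2 fold change of Liq over vehicle for each synthetase gene with its 95% interval from the edgeR fit (n = 2 per group). Filled points have an adjusted p-value under 0.05, and dashed lines mark a 1.5-fold change. The filled points run from -0.57 for YARS2 to 0.27 for AARS, and no point crosses a dashed line.

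The clearest cytosolic change was in HARS, the histidyl-tRNA synthetase gene (chromosome 5 from 140052620 to 140071122, minus strand, GRCh37). Its counts were 5091 and 4600 for vehicle and 3463 and 4675 for Liq, or 124 and 123 CPM against 97.4 and 93.1 CPM after normalization. Both Liq samples lay below both vehicle samples. The mean fell from 123 ± 0.671 to 95.2 ± 2.99 CPM (SD, n = 2). This is -0.37 ± 0.074 on the log2 scale (SE, edgeR adjusted p = 0.000545). Its mitochondrial partner HARS2 (from 140071015 to 140078890, plus strand) starts 85 bases away by the RefSeq starts and is read in the opposite direction, and the outermost annotated transcripts of the 2 genes overlap. HARS2 had 52.7 and 52.3 CPM in vehicle and 51.6 and 50.2 CPM with Liq, a log2 fold change of -0.04 with a 95% interval of -0.21 to 0.12 (adjusted p = 0.732 from edgeR). The ratio of HARS to HARS2 reads within each library was 2.35 for each vehicle sample, with 1.89 and 1.85 for the Liq samples. With 2 samples against 2, the smallest p-value of an exact permutation test on such a ratio is 0.3333, and the ratios are given without one. These 2 genes are close copies, and reads that align to more than 1 place were not counted. In the reference annotation 11.3% of the exon bases of HARS are shared with WDR55 and 9.52% of those of HARS2 with HARS or ZMAT2, and how many reads either gene lost in these ways was not measured.

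The 84 bases between the HARS and HARS2 starts are shown because a single short stretch lies upstream of both genes. They span chr5:140070956-140071039 (GRCh37) and are written 5′ to 3′ on the plus strand, the direction of HARS2, as given in the RefSeq promoter table of GRCh38.p14 and matched letter for letter to GRCh37. Capitals mark the ETS core CCGGAAG on either strand, found 2 times.
HARS to HARS2: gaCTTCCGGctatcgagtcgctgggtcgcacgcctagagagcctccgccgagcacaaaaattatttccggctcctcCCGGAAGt
The same 7 letters were in the 300-base promoter window (250 bases before to 50 after a start) of 9 of 16 cytosolic and 7 of 14 mitochondrial synthetase genes that have a window, and in 12.2% of all 27305 genes with a window, coding or not. HARS and HARS2 share the stretch, so they are not separate entries in these counts.

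Phenylalanyl-tRNA synthetase of the cytosol is built from α subunits, encoded by FARSA, and β subunits, encoded by FARSB. FARSB had 9779 and 9104 counts in vehicle and 7004 and 10314 with Liq, or 238 and 243 CPM against 197 and 205 CPM. The groups did not overlap, and FARSB fell by 0.26 ± 0.068 on the log2 scale (SE, edgeR adjusted p = 0.00716). FARSA had 110 and 101 CPM in vehicle and 112 and 99.2 CPM with Liq, with a log2 fold change of 0.01 and a 95% interval of -0.16 to 0.17. The groups overlapped for FARSA. Within each library, the ratio of FARSB to FARSA reads was 2.167 and 2.417 in vehicle and 1.76 and 2.07 with Liq. The gap between the groups was smaller than the spread within either group. These ratios are not corrected for transcript length, and per length FARSB was the lower gene in vehicle (35.6 RPKM, with 58.1 for FARSA).

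WARS, the tryptophan enzyme, which is also known as an interferon-inducible gene, had 8729 and 7383 counts in vehicle and 6326 and 8623 with Liq, or 212 and 197 CPM against 178 and 172 CPM. It fell by 0.23 ± 0.071 on the log2 scale (SE, edgeR adjusted p = 0.0196). KARS, the lysine enzyme of both compartments, had 10114 and 8835 counts in vehicle and 7331 and 10550 with Liq, or 246 and 236 CPM against 206 and 210 CPM. In both genes the 2 groups were apart. KARS fell by 0.21 ± 0.068 (SE, edgeR adjusted p = 0.0247). TARS, the threonine enzyme, had 19403 and 18789 counts in vehicle and 14602 and 22483 with Liq, or 472 and 502 CPM against 411 and 448 CPM. The groups were apart, and TARS was the called gene nearest to the threshold, at -0.18 ± 0.066 on the log2 scale (SE, edgeR adjusted p = 0.047).

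AARS, the alanine enzyme (chromosome 16 from 70285886 to 70323610), was the synthetase gene with the largest increase. It had 15697 and 14134 counts in vehicle and 16589 and 22616 with Liq, or 382 and 377 CPM against 466 and 451 CPM. Both Liq samples were above both vehicle samples, a rise of 0.27 ± 0.064 on the log2 scale (SE, edgeR adjusted p = 0.0026), or 20.8%. QARS, the glutamine enzyme, had 8382 and 7236 counts in vehicle and 8379 and 10998 with Liq, or 204 and 193 CPM against 236 and 219 CPM. It rose by 0.195 ± 0.070 (SE, edgeR adjusted p = 0.0442), and the groups did not overlap.

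The other 13 cytosolic genes did not pass the threshold. YARS, the tyrosine enzyme, came closest (log2 fold change -0.18, adjusted p = 0.0559 from edgeR), at 274 and 275 CPM in vehicle and 241 and 245 CPM with Liq. Below 0 without a call were also RARS (arginine) at -0.15, CARS (cysteine) at -0.14, VARS (valine) at -0.13, SARS at -0.11 and GARS at -0.08, each with Liq samples below both vehicle samples. The other 7, namely DARS (aspartate), NARS (asparagine), MARS (methionine), LARS (leucine), FARSA, IARS (isoleucine) and EPRS, which joins the glutamate and proline enzymes in 1 protein, had log2 fold changes from -0.05 to 0.01, and their groups overlapped. Of the 8 synthetases of the multisynthetase complex (DARS, EPRS, IARS, KARS, LARS, MARS, QARS and RARS), 1 rose and 1 fell, with a median log2 fold change of -0.02. Of the 12 cytosolic genes outside it, 1 rose and 4 fell, with a median of -0.13. These are 25% and 41.7% called, beside 24.0% of all tested genes, and the difference between the 2 groups was not tested. The 3 scaffold genes of the complex, AIMP1, AIMP2 and EEF1E1, had log2 fold changes of -0.09, -0.07 and -0.10, and 0 of them were called (edgeR; 0 at an unadjusted p-value under 0.05).

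YARS2, the mitochondrial tyrosine enzyme (chromosome 12 from 32880424 to 32908831, minus strand), changed most of all 36 genes. Its counts were 1493 and 1436 for vehicle and 806 and 1370 for Liq, or 36.3 and 38.4 CPM against 22.7 and 27.3 CPM. Both Liq samples were below both vehicle samples, although the Liq replicates were 1.204 times apart. The mean fell from 37.3 ± 1.45 to 24.98 ± 3.27 CPM (SD, n = 2), which is -0.57 ± 0.097 on the log2 scale (SE, edgeR adjusted p = 8.36e-05) or -32.8%.

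SARS2, the mitochondrial serine enzyme (chromosome 19 from 39405906 to 39421403), had 538 and 418 counts in vehicle and 357 and 377 with Liq. In CPM these were 13.1 and 11.2 against 10.04 and 7.51, so the groups were apart but spread widely within themselves. SARS2 fell by 0.48 ± 0.13 on the log2 scale (SE, edgeR adjusted p = 0.00726). CARS2, the mitochondrial cysteine enzyme, had 2372 and 2117 counts in vehicle and 1767 and 2272 with Liq, or 57.7 and 56.5 CPM against 49.7 and 45.3 CPM. Both Liq samples were the lower ones, and CARS2 fell by 0.27 ± 0.082 (SE, edgeR adjusted p = 0.0188).

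The other 13 mitochondrial genes were not called. AARS2, for alanine, had 1931 and 1721 counts in vehicle and 2093 and 2521 with Liq. It was higher in both Liq samples (58.8 and 50.2 CPM) than in both vehicle samples (47.0 and 46.0 CPM), at 0.23 ± 0.087 on the log2 scale (SE, edgeR adjusted p = 0.0567). The log2 fold change of AARS2 was 0.34 without Liq replicate 2 and 0.11 without Liq replicate 1. IARS2 had 10202 and 9082 counts in vehicle and 7727 and 11402 with Liq, or 248 and 243 CPM against 217 and 227 CPM, at -0.14 ± 0.068 (SE, edgeR adjusted p = 0.13). EARS2, the glutamate enzyme, was also higher in both Liq samples, with a log2 fold change of 0.15 (adjusted p = 0.211 from edgeR). IARS2, WARS2 (tryptophan) at -0.19, RARS2 (arginine) at -0.11, LARS2 (leucine) at -0.09, TARS2 (threonine) at -0.07 and HARS2 had both Liq samples below both vehicle samples. VARS2 (valine), NARS2 (asparagine), MARS2 (methionine), FARS2 (phenylalanine) and PARS2 had overlapping groups and log2 fold changes from -0.07 to 0.08. Over all 26 members without a call, in either compartment, no 95% interval reached beyond 0.41 on the log2 scale in either direction, while a 1.5-fold change is 0.58.

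Side by side, the cytosolic and mitochondrial enzymes of 1 amino acid did not pass the threshold together for any amino acid in the fit reported. Of the 17 pairings, 8 had 1 called gene, 9 had 0 and 0 had both (edgeR). YARS and AARS2 lay just above the threshold, beside the called YARS2 and AARS. Both genes of tyrosine were called with the DESeq2 Wald test (YARS adjusted p = 0.0384). Both genes of alanine were called with upper-quartile scaling (AARS2 adjusted p = 0.0404 from edgeR). The gap between the log2 fold changes was widest for tyrosine, where YARS was at -0.18 and YARS2 at -0.57, and for serine, where SARS was at -0.11 and SARS2 at -0.48. In the other direction the widest gaps were those of HARS with HARS2 and FARSB with FARS2. The ratio of YARS to YARS2 reads was 7.54 and 7.18 in vehicle and 10.6 and 8.99 with Liq, and that of SARS to SARS2 was 31.6 and 35.9 in vehicle and 38.3 and 49.7 with Liq. Over the 17 pairings, the ratio in both Liq samples was below both vehicle samples in 5, above in 4 and overlapping in 8. The pairings cover 16 amino acids and use EPRS and FARS2 more than once, so they are not all separate. As single genes, 61.7% of all tested genes did not overlap, and no such share was taken for ratios of other gene pairs. AARS and AARS2 both had positive log2 fold changes (0.27 and 0.23), and WARS and WARS2 both had negative ones (-0.23 and -0.19), with 1 of each pair called.

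**Figure D3:**
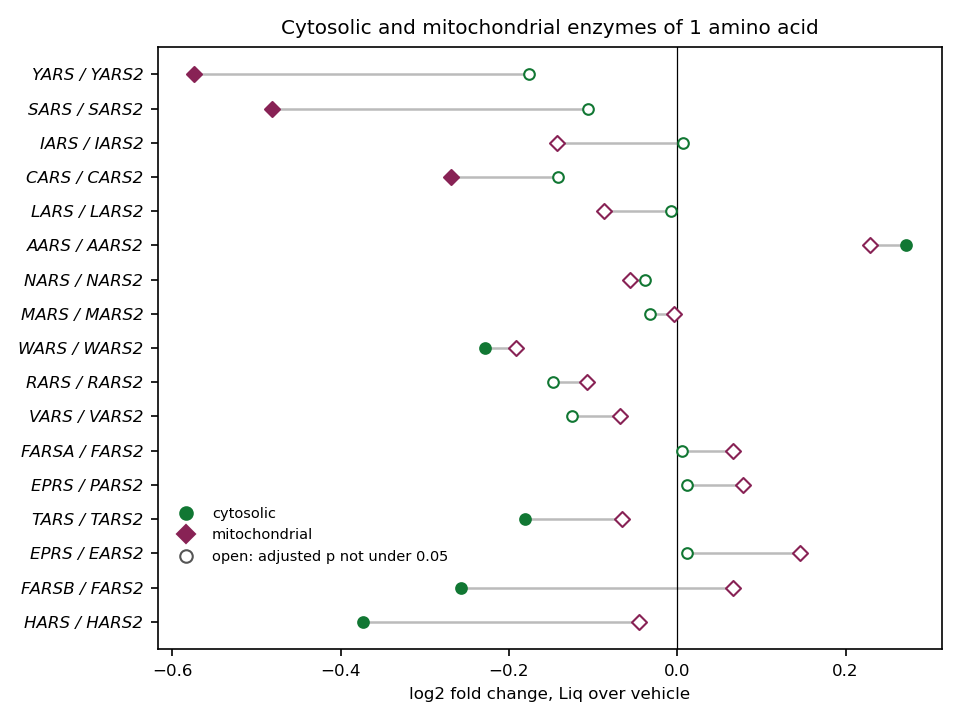
Log2 fold change of Liq over vehicle for the cytosolic (circles) and mitochondrial (diamonds) enzyme genes of each amino acid, ordered by the gap between them. Filled symbols have an adjusted p-value under 0.05 (edgeR, n = 2 per group). The gaps are widest for YARS with YARS2 at the top and HARS with HARS2 at the bottom.

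**Figure D4:**
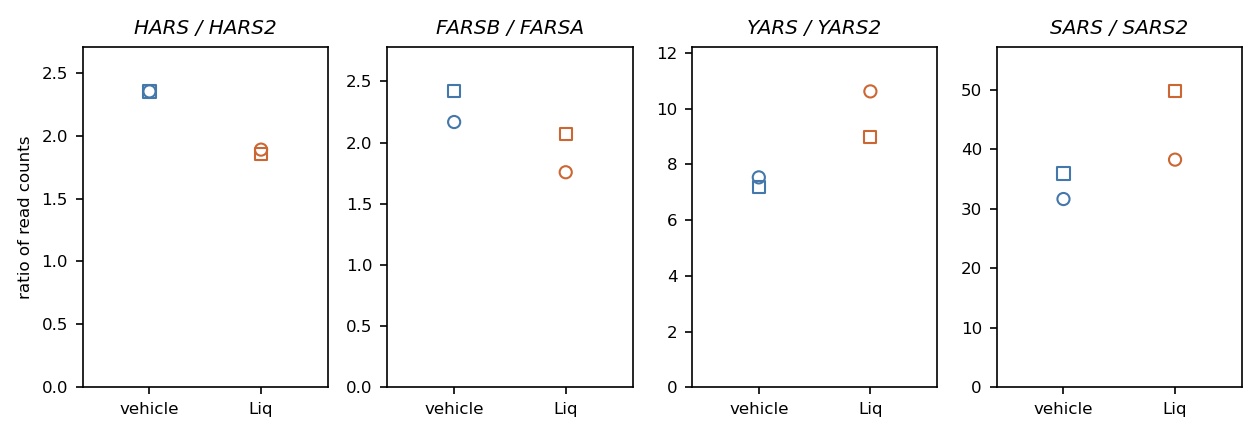
Ratio of read counts within each library for 4 gene pairs, with axes from 0. Blue symbols are vehicle and orange symbols Liq (circles for replicate 1, squares for replicate 2), and no error bars are drawn since every sample is shown. HARS over HARS2 was 2.35 for each vehicle sample and 1.89 and 1.85 with Liq, while YARS over YARS2 and SARS over SARS2 were higher in both Liq samples.

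ATF4 binds, with a C/EBP partner, a composite element whose core letters were searched as TGATGNAA on both strands of the promoter windows. The letters were in 7 of 16 cytosolic synthetase genes with a window (AARS, CARS, GARS, IARS, MARS, NARS and TARS), in 1 of 14 mitochondrial genes (YARS2) and in 4.46% of all 27305 genes with a window. Stretches of 30 bases around the first match are shown because they set these 8 genes beside their different responses. Each is written 5′ to 3′ on the strand of its gene, from the RefSeq promoter table (GRCh38.p14), with the 8 matched letters in capitals.
AARS: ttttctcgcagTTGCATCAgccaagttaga
CARS: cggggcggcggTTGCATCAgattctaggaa
GARS: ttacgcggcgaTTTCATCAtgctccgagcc
IARS: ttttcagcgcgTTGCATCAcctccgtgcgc
MARS: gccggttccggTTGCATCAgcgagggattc
NARS: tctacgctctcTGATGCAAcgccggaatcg
TARS: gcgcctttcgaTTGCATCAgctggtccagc
YARS2: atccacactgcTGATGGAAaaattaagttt
In GRCh37 the AARS stretch is at chr16:70323578-70323607, with its letters beginning 187 bases before the start, and the YARS2 stretch is at chr12:32909010-32909039, with its letters beginning 197 bases before the start. Those of the other 6 genes began within 33 bases of a start. Of these 8 genes AARS rose, TARS and YARS2 fell, and CARS, GARS, IARS, MARS and NARS were not called. Searched in the same way, the antioxidant response core TGACNNNGC was in 4 cytosolic (GARS, KARS, TARS and WARS) and 2 mitochondrial genes (NARS2 and RARS2) and in 16.1% of all genes with a window. The E-box CACGTG was in 1 cytosolic (IARS) and 3 mitochondrial genes (CARS2, EARS2 and MARS2) and in 8.77% of all. A match of letters is not evidence of a bound site.

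The genes around ATF4 were read from lists written from general knowledge. ATF4 itself had 12504 and 11449 counts in vehicle and 10800 and 14871 with Liq, a log2 fold change of -0.02 (adjusted p = 0.831 from edgeR). These are RNA counts, and the protein and activity of ATF4 were not measured. Of 13 cytosolic synthetases generally held to respond to ATF4, AARS rose, TARS and WARS fell and 10 were not called, with a median log2 fold change of -0.08. The 23.1% called is near the 24.0% of all tested genes. Of 15 genes of amino acid sensing and ATF4 regulation, 0 rose and 2 fell, or 13.3% lower beside 11.3% of all tested genes (edgeR, where 0 were higher at an unadjusted p-value under 0.05). These were PPP1R15A, a phosphatase subunit that reverses the block on translation, at -0.49 (adjusted p = 6.12e-06 from edgeR) and ATF5, a related transcription factor, at -0.30. EIF2S1, the α subunit of eIF2, at -0.19, DDIT3 (CHOP) at 0.19, PPP1R15B at 0.15 and TRIB3 at -0.11 did not pass the threshold. Of 17 ATF4 target genes of amino acid supply, 5 rose and 1 fell, which is 29.4% higher and 5.88% lower, beside 12.6% and 11.3% of all tested genes. SLC7A11, the cystine transporter, rose most, from 2500 and 2424 counts in vehicle to 5230 and 8830 with Liq (log2 fold change 1.36, edgeR adjusted p = 2.99e-12). No other gene of this list changed by 1.5-fold, and whether ATF4 or another factor raised these genes was not tested. The others that rose were the proline synthesis gene PYCR1 at 0.35, CBS and CTH of cysteine synthesis at 0.34 and 0.32, and the transporter subunit SLC3A2 at 0.19. ALDH18A1, of proline synthesis, fell by 0.19, and asparagine synthetase (ASNS) had a log2 fold change of 0.15 that was not called (adjusted p = 0.129 from edgeR).

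Genes that work next to the synthetases were read against the same 24.0% of all tested genes called. Of 12 genes of tRNA export, repair, proofreading and other charging routes, DTD1, a proofreading deacylase, fell by 0.25 (adjusted p = 0.0166 from edgeR) and 11 were not called (8.33% called). QRSL1 and GATC, subunits of the mitochondrial amidotransferase that makes glutaminyl-tRNA, were at -0.20 and 0.14, C14orf126 (DTD2), a second deacylase of mischarged tRNA, at -0.20, and MTFMT, which formylates the mitochondrial initiator tRNA, at 0.17. Of 7 cytosolic elongation factors, EIF5A fell by 0.37 (adjusted p = 0.00038 from edgeR), while EEF1B2 at -0.12, EEF1D at 0.09 and EEF2 at -0.07 were not called (14.3% of the list called). Of 10 mitochondrial translation factors, 3 fell and 0 rose, or 30% lower beside 11.3% of all tested genes (edgeR, where 0 were higher at an unadjusted p-value under 0.05). These were MTRF1L, a release factor, at -0.50, the elongation factor GFM1 at -0.34 and TSFM, the exchange factor of TUFM, at -0.33. TUFM itself was at -0.17 without a call (edgeR adjusted p = 0.0888). Positive log2 fold changes were seen in 4 of the 10, all without a call. Among them C12orf65 (0.14), MTIF3 (0.12) and MTRF1 (0.06) had both Liq samples above both vehicle samples.

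Only HARS and YARS2 kept their call under each of the 11 other fits tried, in which HARS had log2 fold changes from -0.41 to -0.32 and YARS2 from -0.72 to -0.45. Those fits changed the scaling, the filter, the test or the block, or left out 1 sample. All 10 called genes kept their direction in them. Offsets that follow the expression level left 1 lower cytosolic gene (HARS) in place of 5 and brought the cytosolic median to -0.01, with AARS and QARS still higher. Under those offsets FARSB was at -0.18, WARS at -0.16, KARS at -0.14 and TARS at -0.10. Without vehicle replicate 1 or without vehicle replicate 2, AARS, QARS, FARSB, KARS, WARS, TARS and CARS2 lost their calls. In that order of the 2 samples, the log2 fold changes were 0.28 and 0.26 for AARS, 0.23 and 0.16 for QARS, -0.27 and -0.24 for FARSB and -0.18 and -0.24 for KARS. They were -0.17 and -0.28 for WARS, -0.23 and -0.14 for TARS and -0.25 and -0.28 for CARS2. The calls over all tested genes were also fewer in these 2 fits, which keep 1 vehicle sample. Without Liq replicate 1, QARS (0.14) and TARS (-0.12) lost theirs. TARS also lost its call with upper-quartile scaling, with at least 10 counts required throughout and with the DESeq2 Wald test (adjusted p = 0.0904, 0.0503 and 0.0524). QARS also lost its call without a filter in edgeR and with the DESeq2 Wald test (adjusted p = 0.052 and 0.0634). SARS2 lost its call without vehicle replicate 1 (-0.36) and without Liq replicate 2 (-0.28), where CARS2 (-0.20) was also lost. YARS2 and SARS2 lay close enough to a 1.5-fold change for single choices to carry them past it. For YARS2 this was so with the expression-level offsets (-0.59), without vehicle replicate 1 (-0.62) and without Liq replicate 2 (-0.72). For SARS2 it was so without vehicle replicate 2 (-0.59) and without Liq replicate 1 (-0.69), and with the DESeq2 Wald test neither gene reached it (-0.58 and -0.48).

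**Figure D5:**
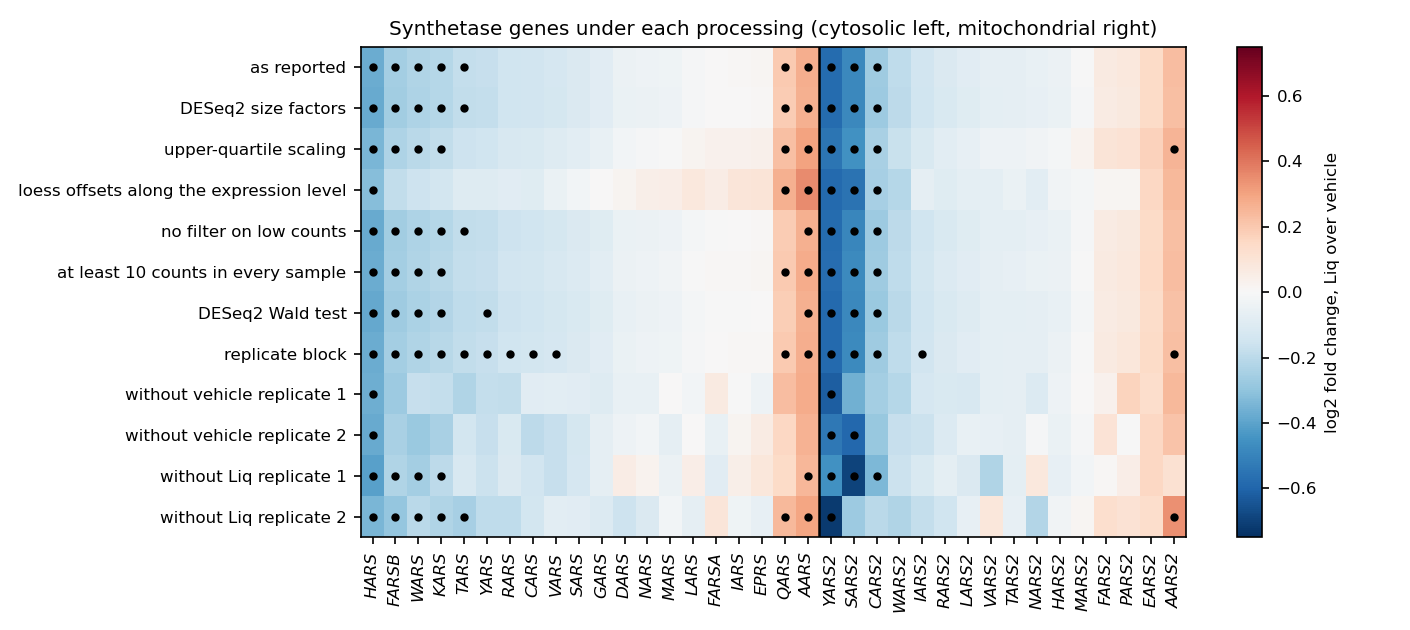
Log2 fold change of Liq over vehicle (colour scale) for each synthetase gene as reported and under 11 other fits, with cytosolic genes left of the black line and mitochondrial genes right of it. Dots mark an adjusted p-value under 0.05. The columns of HARS and YARS2 carry a dot in every fit, while most other dots are lost when a vehicle sample is left out.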

How the data were processed

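RNA-seq was analysed for 4 samples of ES2 cells, 2 treated with vehicle and 2 with Liq. The sample titles gave the groups and replicate numbers, and the study's methods gave the dose. The authors deposited raw counts per gene symbol, whole numbers without normalization or pooling. Per the submitters' processing notes the reads were aligned to hg19 with TopHat2 2.0.8b, after bcl2fastq 2.17.1.14, and counted with HTSeq. The HTSeq version, strand setting and annotation are not given in the sources used here. Reads with several alignments (35.6% to 36.2% of all tallied reads) and reads over several genes (0.544% to 0.557%) were not assigned to a gene. These tally lines stayed out of library sizes and tests. Reads on genes were 54.1% to 55.6% of all tallied reads.

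The tests used edgeR 4.0.16 (R 4.3.3). Low counts were removed with filterByExpr (minimum count 10, minimum total 15), normalized by TMM and compared by glmQLFit and glmQLFTest without a block, with Benjamini-Hochberg adjustment over 13546 genes. A gene was called at an adjusted p-value under 0.05. The SE is the log2 fold change divided by the square root of F, and 95% intervals use the t distribution with the fit's degrees of freedom. These were 25.97 for each member, because the fit shares information on variance across genes. At 3 counts the smallest level shown is 0.0613 to 0.0868 CPM. Alternatives were DESeq2 1.42.0 size factors, upper-quartile scaling, loess offsets along expression (span 0.3), no filter, a minimum of 10 counts in all samples, the Wald test of DESeq2, a block for the replicate number, leaving out each sample, and 1.5-fold thresholds. As a check of the code, the fits were also run on simulated counts that had the same dispersion for all genes. That setting differs from the data, so the run does not show how the fits perform here. Positions and transcript lengths came from GENCODE release 44 lifted to GRCh37, the build of hg19, and promoter windows from RefSeq, which held 30 of the 36 members. Older symbols were matched through RefSeq synonyms.

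The members, lists and motifs were chosen with earlier results of these data known. The rule for naming was to account for all 36 genes, to give full values for those called, to give the same for the 5 mitochondrial genes with the lowest p-values, and from each other list to name at most 5 genes by lowest p-value, with any that moved against its list. ATF4, TRIB3, SLC3A2 and ASNS were named outside this rule, after their values had been seen.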

Additional observations from a re-analysis of the deposited data

How the results depend on the processing

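The limits are the 2 samples per group and changes below 1.5-fold. Of 396 single-gene values under 11 other fits, 333 kept direction and side of the threshold, 28 lost and 9 gained a call, and 26 changed sign, none of them in a called gene. The cause of these moves was not tested.

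As reported, 2 cytosolic genes were higher and 5 lower, and 0 and 3 mitochondrial genes, with medians of -0.0943 and -0.0668. With upper-quartile scaling 1 mitochondrial gene was higher and the medians were -0.0666 and -0.0389. The same scaling moved the median over all tested genes from 0.0062 to 0.0335. With loess offsets 1 cytosolic gene was lower and the cytosolic median was -0.009. Without a filter 1 cytosolic gene was higher and the medians were -0.0996 and -0.0721. With the DESeq2 Wald test 1 cytosolic gene was higher and the medians were -0.1023 and -0.0741. Over all tested genes, 1712 were higher and 1533 lower as reported, and 1885 and 1225 with upper-quartile scaling. These counts were 1475 and 1333 with loess offsets, 1778 and 1636 without a filter and 1027 and 1317 with the DESeq2 Wald test. Requiring a 1.5-fold change left 0 genes in each direction and compartment, with an adjusted and with an unadjusted p-value. With each sample left out in turn, 0 to 2 cytosolic genes were higher and 1 to 5 lower, 0 to 1 mitochondrial genes were higher and 1 to 3 lower, and the medians ranged from -0.1057 to -0.0798 and from -0.0881 to -0.0593. A fit that keeps 1 sample in a group assumes that it varies like the other group.

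With the replicate number as a block, 9 cytosolic genes were lower and 2 higher, and 4 mitochondrial genes were lower and 1 higher (AARS2). Both genes of alanine, of cysteine and of tyrosine then passed the threshold. Calls also rose over all 13546 tested genes, to 2474 lower and 2321 higher, from 1533 lower and 1712 higher without the block. Samples with the same number deviated together with a correlation of 0.0483 across genes, and no label says what the number marks. The block was therefore kept as 1 of the 11 other fits and not as the reported one.

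Signs changed in genes near 0. With upper-quartile scaling LARS was at 0.0203 and MARS2 at 0.0235. With loess offsets DARS was at 0.0229, GARS at 0.0048, LARS at 0.0772, MARS at 0.0473 and NARS at 0.0415. FARSA was at -0.0002 without a filter and at -0.0025 with the DESeq2 Wald test, where IARS was at -0.0007. Over the fits that each left out 1 sample, EPRS ranged from -0.0637 to 0.0822, IARS from -0.0304 to 0.0422, MARS from -0.066 to 0.0011, MARS2 from -0.023 to 0.0143, FARSA from -0.085 to 0.0908, LARS from -0.0666 to 0.0482, PARS2 from -0.0044 to 0.1676, DARS from -0.1561 to 0.054, NARS from -0.1108 to 0.0283, NARS2 from -0.2196 to 0.0798 and VARS2 from -0.228 to 0.0827.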

Other observations

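The synthetases fall into 2 structural classes with unrelated catalytic domains. Of the 18 class I genes, which include those for arginine, leucine, tyrosine and tryptophan, QARS rose and WARS, CARS2 and YARS2 fell, with a median log2 fold change of -0.12. Of the 17 class II genes, which include those for alanine, histidine, serine and threonine, AARS rose and HARS, KARS, TARS, FARSB and SARS2 fell, with a median of -0.06. EPRS, which has a domain of each class, was counted in neither. That is 22.2% and 35.3% called, beside 24.0% of all tested genes (edgeR, adjusted p-value under 0.05).

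Besides HARS with HARS2, 6 synthetase genes have a protein-coding gene on the opposite strand that starts within 1000 bases. SARS2 starts 181 bases from MRPS12, a mitochondrial ribosomal protein gene, which had 1459 and 1231 counts in vehicle and 1121 and 1496 with Liq, a log2 fold change of -0.16 that was not called (adjusted p = 0.208 from edgeR) beside -0.48 for SARS2. KARS starts 108 bases from TERF2IP, a telomere protein gene, at -0.16 (adjusted p = 0.133 from edgeR) beside -0.21 for KARS. UBFD1, which starts 377 bases from EARS2, fell by 0.23 (adjusted p = 0.0252 from edgeR), while EARS2 was at 0.15 without a call. S100PBP beside YARS, LYRM4 beside FARS2 and ORC3 beside RARS2 were not called, at log2 fold changes of 0.14, -0.17 and 0.07. These neighbours were chosen after the values of the members had been seen.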
